A study of Mus musculus with 8 samples.

Results

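The 10 genes described here belong to the cadherin superfamily and were followed in mouse embryonic stem cells (ESCs) after depletion of a member of the HIRA histone chaperone complex. They were chosen by name: the classical cadherins Cdh1, Cdh2, Cdh3, Cdh4 and Cdh11, the Fat and Dachsous genes Fat1, Fat3 and Dchs1, and the flamingo-type genes Celsr1 and Celsr2. The choice was made with earlier results of these data known. All 10 were found among the 55418 genes of the count tables. RNA-seq was done on E14 ESCs, an established line labelled with the strain 12910la, grown on gelatin with serum and LIF. The 4 groups had 2 libraries each: Control, given as wild type and transfected with the pSuper puro vector, and cells transfected with the same vector carrying an shRNA against Hira (Hira_KD), Ubn1 (Ubn1_KD) or Ubn2 (Ubn2_KD). All groups, the control included, were selected with puromycin for some days after transfection, so each library is a selected pool of transfected cells and not a clone. The study's methods describe the control plasmid as an shRNA against luciferase, and which hairpin against each target gave these libraries was not given in the sources used here. Nothing in the labels says that the libraries of a group came from separate cultures, so p-values measure only the spread between these libraries.

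Cadherins are transmembrane proteins that hold neighbouring cells together through calcium-dependent contacts. Classical cadherins bind β-catenin and p120-catenin on the inside of the membrane, and E-cadherin, the product of Cdh1, is the main adhesion molecule of ESCs and of epithelia. Fat and Dachsous proteins are very large cadherins that bind each other between cells, and Celsr proteins act in planar cell polarity, the alignment of cells within the plane of a sheet. Hira, Ubn1 and Ubn2 belong to a complex that places the histone variant H3.3 on chromatin outside DNA replication.

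Total counts ran from 19710040 to 32706053 per library. Levels are given as CPM (counts scaled to a fixed library total) on library sizes scaled by the TMM method, which corrects for differences in composition, with the SD over the 2 libraries of a group. Hira fell to 10.8% of its control level in Hira_KD cells, Ubn1 to 49.0% in Ubn1_KD cells and Ubn2 to 53.8% in Ubn2_KD cells, so depletion was deepest for Hira. The 8 markers of embryonic stem cells summed to 6433 and 6646 CPM in the control libraries and to 5386 to 5859 CPM in the 6 depleted libraries, all below control, and none of them was at 0. The labelled cell type was thus present in every group. Of the 8 markers, edgeR called 0 after Hira or Ubn1 depletion and 2 lower after Ubn2 depletion, a count that was smaller without Ubn2_KD replicate 1. DESeq2 also called 0 after Hira or Ubn1 depletion. At an unadjusted p under 0.05, 2 markers were higher and 4 lower for Hira, and 0 higher and 3 lower for Ubn1. Over all tested genes the shares called up and down were 10.8% and 5.40% for Hira, 1.53% and 1.56% for Ubn1, and 9.59% and 8.75% for Ubn2. At such shares, 0 of 8 says little about these markers.

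Several of these genes are related in sequence, and the longest stretches that related members share in their annotated transcripts show how far reads of one could be counted for another. The runs below lie in coding exons of the GRCm38 build and are identical between both genes named.
Cdh1 and Cdh3: ttttctacagcatcac
Celsr1 and Celsr2: aaccctgacttctgctggct
Celsr1 and Celsr2, a second run of equal length: tttgtggaagagaacagccc
Fat1 and Fat3: ctgcaagtgacagctctggacaaagacaa

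The shared run of the neighbouring genes Cdh1 and Cdh3 was 16 bases long, at chr8:106653795-106653810 in Cdh1 and chr8:106536847-106536862 in Cdh3, both on the plus strand. The runs of Celsr1 and Celsr2 were 20 bases long, and that of Fat1 and Fat3, at chr8:45017979-45018007 on the plus strand and chr9:16003882-16003910 on the minus strand, was 29 bases long. No member shared a 50-base stretch with another member. Cdh1, Cdh2, Cdh3, Cdh4, Fat3, Celsr1 and Celsr2 shared none with any other annotated gene either. For Cdh11, 2.07% of its 50-base stretches also occurred in 8 other genes. For Fat1 the share was 2.51%, all with the antisense gene Gm2366, and for Dchs1 it was 4.17%, all with the pseudogene Gm15645 on the opposite strand.

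The members were spread over 7 chromosomes, with spans between 24.7 kb (Celsr2) and 591.1 kb (Fat3). Cdh3 (chr8:106510891-106557297) and Cdh1 (chr8:106603351-106670246) lie in tandem on the plus strand, 46.1 kb apart, with 2 annotated genes between them. Cdh11 and Fat1 lie elsewhere on the same chromosome.

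In control ESCs, Cdh1 was the most abundant member and Cdh11 and Fat3 were at or near 0. Levels were compared between genes as CPM per kilobase of exon. Cdh1 stood at 65.2 ± 1.64 CPM per kb (SD, n = 2), followed by Fat1 at 10.9 ± 0.226 and Cdh3 at 9.63 ± 0.550. Celsr1 came next at 3.34 ± 0.0815 CPM per kb, then Celsr2 at 0.894 ± 0.0330 and Cdh2 at 0.420 ± 0.0129. Cdh4 at 0.167 ± 0.0647 and Dchs1 at 0.0941 ± 0.0164 CPM per kb were the lowest members with a level in both control libraries. Each neighbouring pair in this order was apart in the 2 control libraries, except Cdh11 and Fat3, whose values overlapped. E-cadherin RNA was therefore far ahead of N-cadherin RNA, with Cdh2 at 0.641% and 0.646% of the Cdh1 level per kb in the 2 control libraries.

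**Figure D1:**
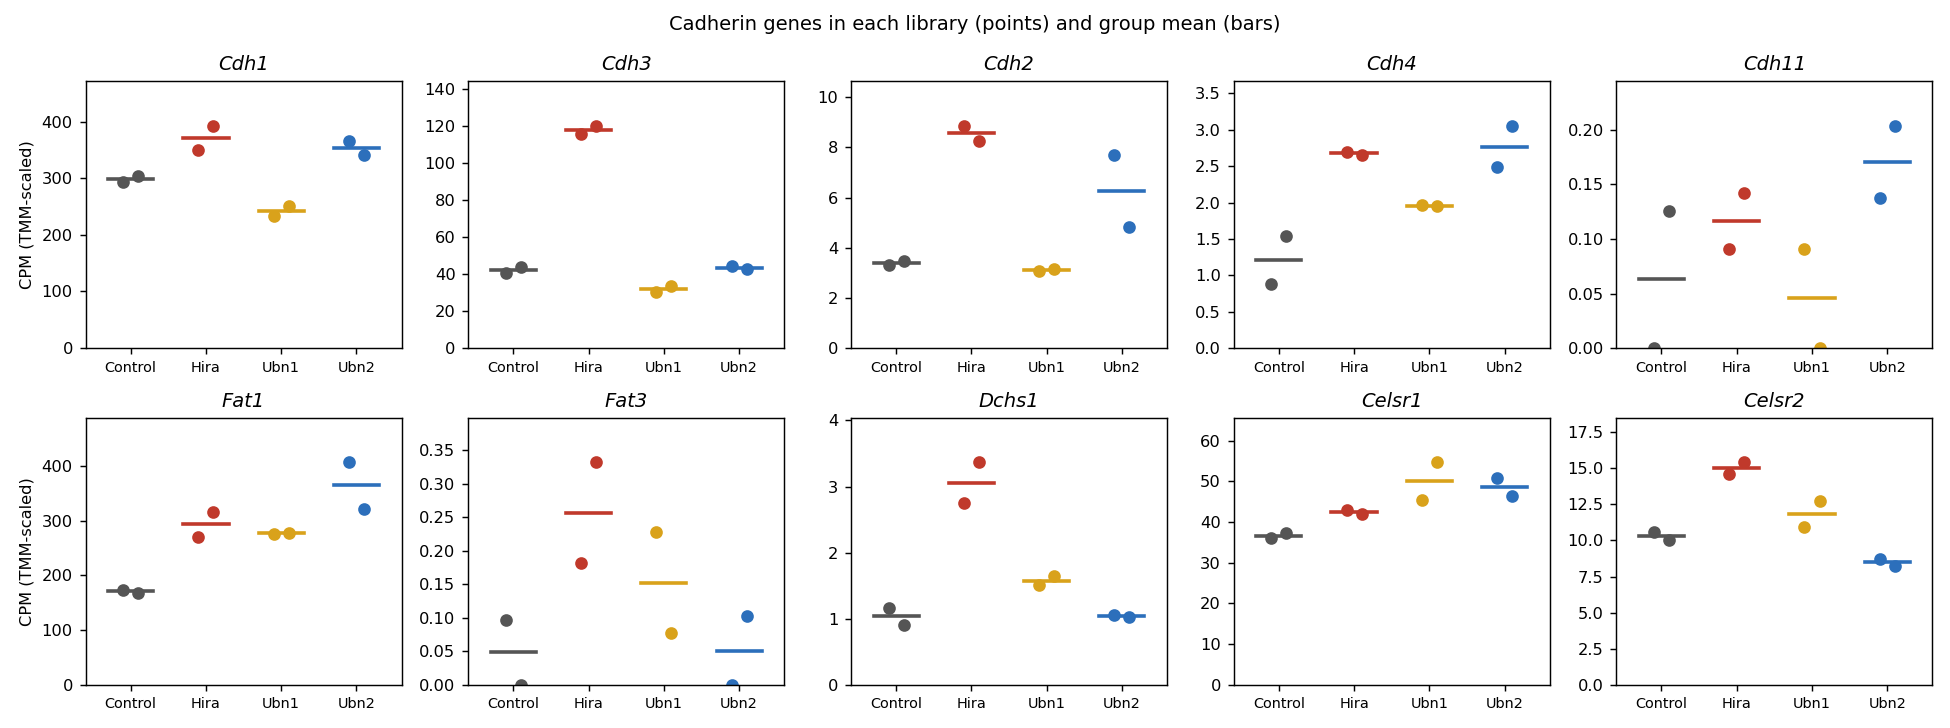
Level of each of the 10 cadherin genes (vertical axis, CPM on TMM-scaled library sizes, a separate linear scale from 0 for each gene) in the 2 libraries of each group (points), with the group mean as a bar. Cdh3 and Dchs1 are high in both Hira_KD libraries, Fat1 is above control in all 3 depletions, and Cdh11 and Fat3 rest on a few counts.

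A gene was called when its adjusted p was under 0.05 and its level differed by more than 1.5-fold, using edgeR's quasi-likelihood test over all genes of the 4 libraries compared. Of the 10 members, 8 passed the filter on low counts in every comparison, and Cdh11 and Fat3 did not. Depletion of Hira upregulated 5 of the 8 tested members, Cdh2, Cdh3, Cdh4, Fat1 and Dchs1, where 10.8% of all tested genes were called up. After Ubn2 depletion 3 were called up, Cdh2, Cdh4 and Fat1, against 9.59% of all genes, and after Ubn1 depletion 1 was, Fat1, against 1.53%. The Cdh4 calls after Hira and Ubn2 depletion and the Cdh2 call after Ubn2 depletion did not hold under every alternative setting. In these comparisons edgeR called 0 members down, where 5.40% (Hira), 8.75% (Ubn2) and 1.56% (Ubn1) of all genes were, and DESeq2 also called 0. At such shares, 0 of 8 called down says little about the members. At an unadjusted p under 0.05, 0 members were lower after Hira depletion, 0 after Ubn2 depletion and 2 after Ubn1 depletion. The median log2 fold change of the tested members was 0.92 after Hira depletion, 0.32 after Ubn1 depletion and 0.32 after Ubn2 depletion, beside medians over all genes of 0.011, -0.0024 and -0.0041. The 3 comparisons share the same control libraries.

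All 8 tested members had both Hira_KD libraries above both control libraries, as 35.6% of all genes did, and 0 had both below, as 31.4% did. After Ubn1 depletion 5 were above (26.5% of all genes) and 3 below (24.8%). After Ubn2 depletion 5 were above (34.7%), 1 was below (34.9%) and 2 overlapped with control. Libraries of 2 against 2 cannot reach an exact permutation p below 0.333, so the non-overlap of a single gene carries no call. RNA was taken from whole cell pools, where fewer cells expressing a gene and less RNA of it per cell cannot be told apart.

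**Figure D2:**
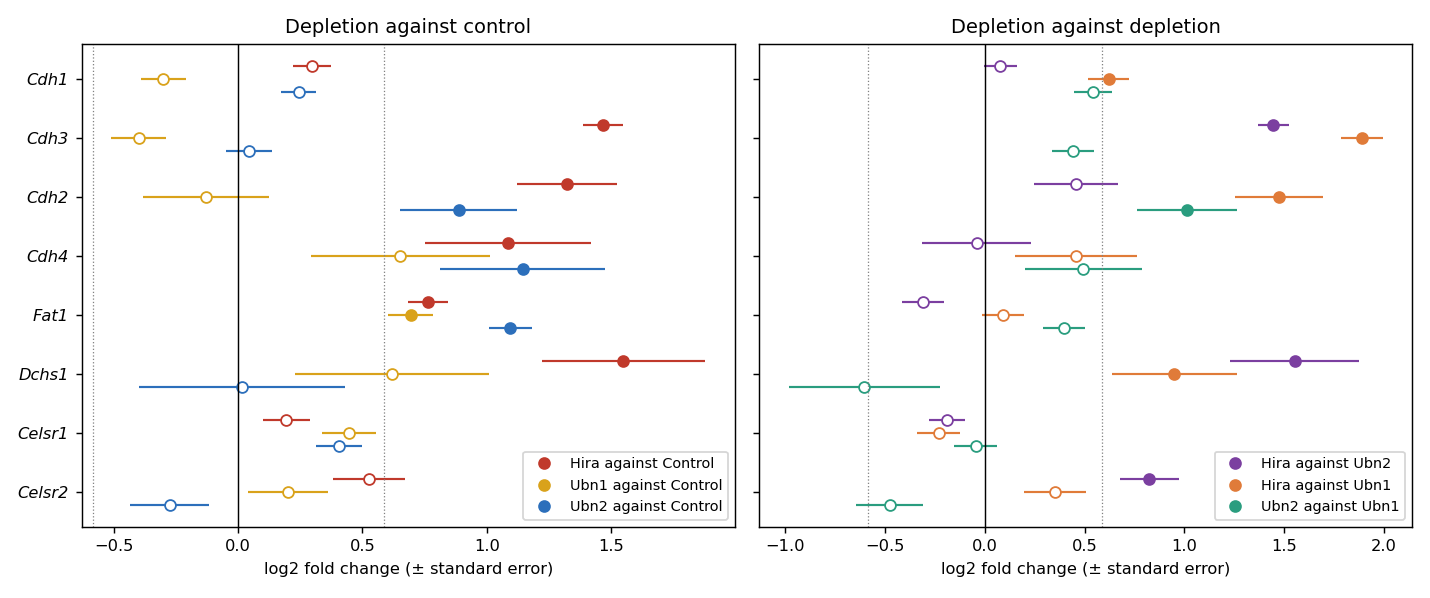
Log2 fold change with its standard error (horizontal axis) of the 8 tested members, for each depletion against control (left) and for depletions against each other (right). Filled points passed both the adjusted p and the 1.5-fold limit (dotted lines), and in the left panel Cdh3 after Hira depletion lies furthest beyond its error.

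Cdh1, which encodes E-cadherin, stood at 293 and 304 CPM in the control libraries and at 349 and 393 CPM after Hira depletion. It measured 234 and 251 CPM in Ubn1_KD cells and 366 and 340 CPM in Ubn2_KD cells. The Hira_KD and Ubn2_KD libraries were above control and the Ubn1_KD libraries below, without overlap, but each difference stayed under the fold limit. The log2 fold changes were 0.30 ± 0.08 (SE; adjusted p = 0.00471) after Hira depletion, -0.30 ± 0.09 (adjusted p = 0.0352) after Ubn1 depletion and 0.24 ± 0.07 (adjusted p = 0.00956) after Ubn2 depletion. The size of these differences was 1.23-fold, 1.23-fold and 1.18-fold, small differences that each had an adjusted p under 0.05.

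Cdh3, which encodes P-cadherin of basal epithelia and placenta, showed the clearest response to Hira depletion. Its level was 40.5 and 43.9 CPM in control cells and 116 and 120 CPM in Hira_KD cells. It was 30.4 and 33.8 CPM in Ubn1_KD cells and 44.5 and 42.7 CPM in Ubn2_KD cells. Both Hira_KD libraries were far above all 6 others, which ran from 30.4 to 44.5 CPM. Cdh3 rose 2.77-fold after Hira depletion, with a log2 fold change of 1.47 ± 0.08 and an adjusted p of 9.18e-11. After Ubn1 depletion the log2 fold change was -0.40 ± 0.11 (adjusted p = 0.0211), within the fold limit, and after Ubn2 depletion it was 0.044 ± 0.091 (adjusted p = 0.737). The 8 trophoblast markers summed to 38.1 to 43.8 CPM in control, 41.3 to 50.9 in Hira_KD, 38.3 to 40.9 in Ubn1_KD and 40.6 to 43.0 CPM in Ubn2_KD cells, and none was at 0 in both libraries of a group. After Hira depletion 2 of 6 tested trophoblast markers were called up and 1 down (1 up and 0 down without Control replicate 2, and 4 up without Hira_KD replicate 2). Over all tested genes 10.8% were called up and 5.40% down after Hira depletion. The part of the trophoblast markers in the Cdh3 result was not tested.

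Cdh2 encodes N-cadherin, known from neural tissue, heart and mesenchyme. Its level was 3.31 and 3.46 CPM in control cells, 8.87 and 8.25 CPM in Hira_KD cells, 3.06 and 3.15 CPM in Ubn1_KD cells, and 7.68 and 4.84 CPM in Ubn2_KD cells. The Hira_KD libraries were high and close, while the 2 Ubn2_KD libraries were both above control but far apart. Cdh2 rose 2.50-fold after Hira depletion (log2 fold change 1.32 ± 0.20, adjusted p = 3.29e-05) and 1.85-fold after Ubn2 depletion (0.89 ± 0.24, adjusted p = 0.00480). In Ubn1_KD cells the log2 fold change was -0.13 ± 0.25 (adjusted p = 0.824). Without Ubn2_KD replicate 1 the Ubn2 value was 0.52 and its adjusted p 0.171, so that call rested on this library.

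Sums of markers of other cell types were also compared with control. The summed level of 8 heart muscle markers was 20.3 to 21.2 CPM in control cells, 19.9 to 23.3 in Hira_KD cells and 19.6 to 24.2 in Ubn1_KD cells, but 279 and 179 CPM in Ubn2_KD replicates 1 and 2. After Ubn2 depletion 6 of these 8 markers were called up and 1 down, beside 9.59% and 8.75% of all genes. The count called up was 3 when at least 10 counts were required in every library. Csrp3 was at 0 in both control libraries, while none of the 8 was at 0 in the Ubn2_KD libraries. The 8 neural markers summed to 106 to 113 CPM in control, 189 to 205 in Hira_KD, 143 to 166 in Ubn1_KD and 102 to 110 CPM in Ubn2_KD cells, with Neurog2 and Dcx at 0 in control and Dcx at 0 in Hira_KD cells. Of 6 tested neural markers, 3 were called up and 0 down after Hira depletion, beside 10.8% and 5.40% of all genes. After Ubn1 depletion 1 was called up and 1 down (1.53% and 1.56% of all genes). After Ubn2 depletion 1 was called up and 0 down (9.59% and 8.75%). Not all of the Ubn1 and Ubn2 calls held under the alternative settings. The 8 fibroblast and mesenchyme markers summed to 39.4 to 43.1 CPM in control, 39.4 to 44.2 in Hira_KD, 35.1 to 45.4 in Ubn1_KD and 31.6 to 35.6 CPM in Ubn2_KD cells. Col3a1, Postn, Dcn and Lum were at 0 in control and none was at 0 in Ubn2_KD cells. Of 3 tested after Hira depletion, 1 was called up and 1 down, beside 10.8% and 5.40% of all genes. The count called up ran from 0 to 2 over the alternative settings. Of 6 tested in the Ubn2 comparison, 3 were called up and 2 down, beside 9.59% and 8.75% of all genes. The count called down was smaller without Ubn2_KD replicate 1. All 3 calls up were lost when at least 10 counts were required in every library. The part of these markers in the results for Cdh2 and for the other members called in the same libraries was not tested.

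Cdh4 encodes R-cadherin, known from retina and other neural tissue. It had 18 and 49 counts in control libraries, 89 and 56 in Hira_KD, 43 and 51 in Ubn1_KD, and 54 and 60 in Ubn2_KD libraries. On the CPM scale these were 0.876 and 1.54 in control, 2.69 and 2.66 in Hira_KD, 1.96 and 1.96 in Ubn1_KD, and 2.48 and 3.06 in Ubn2_KD cells. The control libraries were the most unequal and lay below all others. The log2 fold changes were 1.09 ± 0.33 after Hira depletion (adjusted p = 0.0154), 1.15 ± 0.33 after Ubn2 depletion (adjusted p = 0.00904) and 0.65 ± 0.36 after Ubn1 depletion (adjusted p = 0.293). Neither call held with DESeq2, which gave adjusted p of 0.0807 for Hira and 0.0653 for Ubn2. Without Control replicate 1 the values were 0.77 (adjusted p = 0.152) and 0.84 (adjusted p = 0.0732), and without Ubn2_KD replicate 2 the Ubn2 value was 0.99 (adjusted p = 0.0550).

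Cdh11, which encodes a cadherin of mesenchyme and bone, was barely detected. It had 0 and 4 counts in control, 3 and 3 in Hira_KD, 2 and 0 in Ubn1_KD, and 3 and 4 in Ubn2_KD libraries, and was not tested. A level of 3 counts corresponded to 0.0908 to 0.153 CPM depending on the library, so a difference between groups was not detectable at this depth.

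Cdh1 and Cdh3 made up nearly all of the classical cadherin RNA, and their balance shifted after Hira depletion. Their summed level with Cdh2, Cdh4 and Cdh11 was 73.8 and 77.1 CPM per kb in control cells, 104 and 115 in Hira_KD, 58.8 and 63.2 in Ubn1_KD, and 91.6 and 85.2 in Ubn2_KD cells. Cdh3 was 12.5% and 13.0% of this sum in control cells and 25.4% and 23.9% in Hira_KD cells, but 11.8% and 12.2% in Ubn1_KD and 11.1% and 11.4% in Ubn2_KD cells. The ratio of Cdh3 to Cdh1 per kb was 0.144 and 0.151 in control, 0.347 and 0.320 in Hira_KD, 0.135 and 0.140 in Ubn1_KD, and 0.127 and 0.131 in Ubn2_KD cells. The ratio was above control in the Hira_KD libraries and below control in the other depletions, without overlap. These ratios restate the levels above, and no separate test was made on them.

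**Figure D3:**
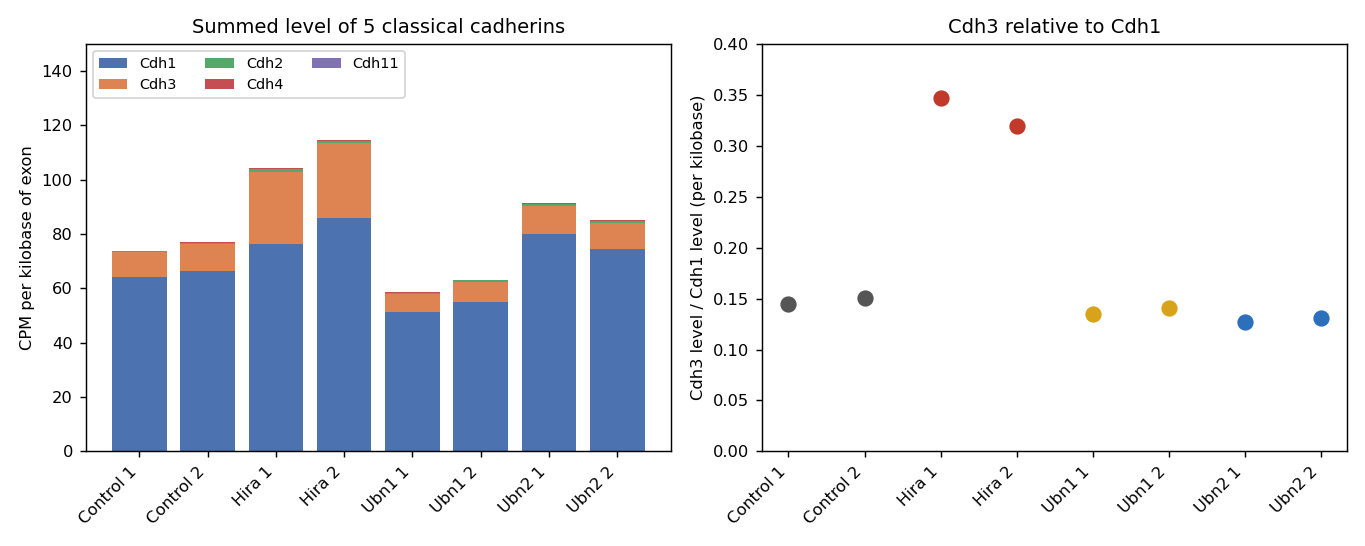
Left, summed level of the 5 classical cadherins in each library (CPM per kilobase of exon, stacked by gene); right, ratio of the Cdh3 to the Cdh1 level per kilobase in each library. The Cdh3 part is largest in both Hira_KD libraries, with ratios of 0.347 and 0.320 against 0.144 and 0.151 in control.

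Cdh2 stayed a small fraction of the Cdh1 level in every library. It was 1.44% and 1.19% of Cdh1 per kb in Hira_KD cells, 0.740% and 0.712% in Ubn1_KD cells, and 1.19% and 0.807% in Ubn2_KD cells.

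Fat1, a giant atypical cadherin found at the cell cortex of epithelia, was the single member called in all 3 depletions. Its level was 173 and 168 CPM in control cells, 271 and 316 CPM in Hira_KD cells, 276 and 278 CPM in Ubn1_KD cells, and 407 and 322 CPM in Ubn2_KD cells. All 6 depleted libraries were above both control libraries, and the highest values were in Ubn2_KD cells. The log2 fold change was 0.76 ± 0.08 after Hira depletion (1.70-fold, adjusted p = 4.47e-07), 0.70 ± 0.09 after Ubn1 depletion (1.62-fold, adjusted p = 4.73e-06) and 1.09 ± 0.09 after Ubn2 depletion (2.14-fold, adjusted p = 3.92e-09). The antisense gene Gm2366 shares 487 exon bases with Fat1, and its counts were 2.75% to 3.77% of those of Fat1. The strand setting of the counting was not given in the sources used here, so reads of this stretch cannot be assigned to one gene with certainty.

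Fat3, a relative of Fat1 known from neurons, had 2 and 0 counts in control, 6 and 7 in Hira_KD, 5 and 2 in Ubn1_KD, and 0 and 2 in Ubn2_KD libraries. It was not tested. The Hira_KD libraries held the most counts, but at 0 to 7 counts a difference was not measurable.

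Dchs1 encodes a Dachsous cadherin, the binding partner of the Fat protein Fat4. It had 24 and 29 counts in control libraries, 91 and 71 in Hira_KD, 33 and 43 in Ubn1_KD, and 23 and 20 in Ubn2_KD libraries. Its level was 1.17 and 0.912 CPM in control cells, 2.75 and 3.37 CPM in Hira_KD, 1.505 and 1.65 CPM in Ubn1_KD, and 1.06 and 1.02 CPM in Ubn2_KD cells. The Hira_KD libraries stood alone above the rest. Dchs1 rose 2.93-fold after Hira depletion (log2 fold change 1.55 ± 0.33, adjusted p = 0.000981). The log2 fold change was 0.62 ± 0.39 (adjusted p = 0.369) after Ubn1 depletion and 0.016 ± 0.415 (adjusted p = 0.981) after Ubn2 depletion, both with wide errors. The pseudogene Gm15645 shares 648 exon bases with Dchs1 on the other strand and had 1 to 9 counts, from 2.33% to 27.6% of those of Dchs1.

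Celsr1, which acts in planar cell polarity, stayed within the fold limit in each depletion. Its level was 36.1 and 37.3 CPM in control, 43.0 and 41.9 CPM in Hira_KD, 45.5 and 54.7 CPM in Ubn1_KD, and 50.8 and 46.4 CPM in Ubn2_KD cells. All depleted libraries were above control. The log2 fold changes were 0.19 ± 0.09 (adjusted p = 0.117) for Hira, 0.45 ± 0.11 (adjusted p = 0.00892) for Ubn1 and 0.40 ± 0.09 (adjusted p = 0.00143) for Ubn2 depletion.

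Celsr2, its paralogue known from neural cells, had a different order of groups. It measured 10.6 and 10.0 CPM in control, 14.6 and 15.4 CPM in Hira_KD, 10.9 and 12.7 CPM in Ubn1_KD, and 8.73 and 8.26 CPM in Ubn2_KD cells. The Hira_KD libraries were the highest and the Ubn2_KD libraries the lowest. The log2 fold changes against control were 0.53 ± 0.14 (adjusted p = 0.00717) for Hira, 0.20 ± 0.16 (adjusted p = 0.507) for Ubn1 and -0.27 ± 0.16 (adjusted p = 0.184) for Ubn2 depletion, and none passed both limits. Per kb of exon, Celsr1 was 3.57 and 3.90 times Celsr2 in control, 3.08 and 2.85 times in Hira_KD, 4.37 and 4.50 times in Ubn1_KD, and 6.09 and 5.88 times in Ubn2_KD cells.

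The order of levels within a group differed between depletions. In Hira_KD cells Cdh3, at 26.5 and 27.5 CPM per kb, was above Fat1, at 17.3 and 20.2, while in control cells Fat1 was above Cdh3. In Ubn2_KD cells Celsr2, at 0.759 and 0.717 CPM per kb, lay within the range of Cdh2, at 0.952 and 0.600.

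Depletions were then compared with each other to see which members differ between them, since being called in 1 depletion and not in another is no test. The target RNA was at 10.8% of control for Hira, 49.0% for Ubn1 and 53.8% for Ubn2. In comparisons with Hira_KD cells, the gene targeted and the depth of its depletion therefore cannot be told apart. Hira_KD cells had 3 of the 8 tested members called above Ubn2_KD cells, Cdh3, Dchs1 and Celsr2, where 12.0% of all genes were called higher and 5.61% lower. Cdh3 was 2.72-fold higher (log2 fold change 1.45 ± 0.08, adjusted p = 1.26e-08), Dchs1 2.93-fold higher (1.55 ± 0.32, adjusted p = 0.00178) and Celsr2 1.77-fold higher (0.82 ± 0.15, adjusted p = 0.000569) with Hira depleted. These are members that separated both depletions. Fat1 was lower in Hira_KD cells by a log2 fold change of -0.31 ± 0.10 (adjusted p = 0.0320), within the fold limit, and the values for Cdh2 were 0.46 ± 0.21 (adjusted p = 0.106). Without Ubn2_KD replicate 1 the Cdh2 value was 0.83 with an adjusted p of 0.00881, and it was then called. The values for Cdh1, Cdh4 and Celsr1 were 0.077 ± 0.083, -0.039 ± 0.273 and -0.19 ± 0.09, with adjusted p of 0.504, 0.927 and 0.109.

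Hira_KD cells had 4 members called above Ubn1_KD cells, Cdh1, Cdh2, Cdh3 and Dchs1, beside 9.52% of all genes called higher and 3.16% lower. Cdh3 was 3.71-fold higher (log2 fold change 1.89 ± 0.10, adjusted p = 6.34e-13), and Cdh2 was 2.78-fold higher (1.47 ± 0.22, adjusted p = 1.72e-05). Cdh1 was 1.54-fold higher (0.62 ± 0.10, adjusted p = 6.75e-05), close to the fold limit, and it fell under that limit without Hira_KD replicate 2 (0.53) or without Ubn1_KD replicate 1 (0.55). Dchs1 was 1.93-fold higher (0.95 ± 0.31, adjusted p = 0.0277). DESeq2 did not call it (adjusted p = 0.125), nor did edgeR without Hira_KD replicate 2 (adjusted p = 0.158), without Ubn1_KD replicate 1 (0.100) or without Ubn1_KD replicate 2 (0.0652). The log2 fold change of Fat1 between these depletions was 0.092 ± 0.103 (adjusted p = 0.565).

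Ubn2_KD cells had 1 member called above Ubn1_KD cells, Cdh2, where 4.61% of all genes were called higher and 4.09% lower. Cdh2 was 2.02-fold higher (log2 fold change 1.01 ± 0.25, adjusted p = 0.0107), and the value without Ubn2_KD replicate 1 was 0.64 (adjusted p = 0.240). Cdh1 (0.54 ± 0.09), Cdh3 (0.44 ± 0.10) and Fat1 (0.40 ± 0.11) were higher in Ubn2_KD cells at adjusted p of 0.000671, 0.00795 and 0.0173, but within the fold limit. Cdh1 passed it without Ubn1_KD replicate 2 (0.59) or Ubn2_KD replicate 2 (0.60). Dchs1 and Celsr2 had values of -0.60 ± 0.38 and -0.48 ± 0.17, with adjusted p of 0.302 and 0.0592.

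Genes that work with cadherins were described by lists. Among 39 other cadherins, 18 were tested in the Hira comparison, and 5 of them were called up and 2 down, with a median log2 fold change of 0.33. Over all tested genes 10.8% were called up and 5.40% down, with a median of 0.011. The 3 with the smallest adjusted p were Cdh13, which encodes the membrane-anchored T-cadherin and went from 2 and 7 counts in control to 49 and 42 in Hira_KD libraries (3.29 ± 0.54, adjusted p = 7.86e-05), Cdh24 (0.81 ± 0.15, adjusted p = 0.000337) and the Fat relative Fat2 (1.52 ± 0.31, adjusted p = 0.000759). After Ubn2 depletion 16 were tested, with 3 called up, 2 down and a median of -0.030, beside 9.59% and 8.75% of all genes and a median of -0.0041. They included Cdh5, which encodes the endothelial VE-cadherin, which went from 3 and 3 control counts to 75 and 29 Ubn2_KD counts (adjusted p = 5.02e-06). Cdh13 was called up here too, with 43 and 29 Ubn2_KD counts (3.31 ± 0.54, adjusted p = 5.04e-05). Cdh23, a cadherin of hair cell tip links, fell from 4.46 ± 0.711 to 0.860 ± 0.279 CPM (log2 fold change -2.35 ± 0.31, adjusted p = 4.94e-06), and the desmosomal Dsg2 fell by 0.63 on the log2 scale (adjusted p = 3.21e-05). After Ubn1 depletion edgeR called 0 of 13, with 3 higher and 1 lower at an unadjusted p under 0.05, and DESeq2 called 0. With at least 10 counts required in every library, which removes genes near 0 in control, the genes called up were 2 for Hira and 0 for Ubn2. Without Control replicate 2 or without Hira_KD replicate 1, 1 gene was called down for Hira.

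Of 12 nonclustered protocadherins, few were detected. After Hira depletion 2 of 3 tested were called up (10.8% of all genes), Pcdh1 (0.71 ± 0.16, adjusted p = 0.00151) and Pcdh8 (1.86 ± 0.43, adjusted p = 0.00203). After Ubn2 depletion 1 of 4 was called up, Pcdh7, which had 0 counts in both control libraries and 22 and 18 in Ubn2_KD libraries and was at least 8.03-fold higher, taking 3 counts per library as the floor. After Ubn1 depletion edgeR and DESeq2 called 0 of 3, and 0 had an unadjusted p under 0.05. Without Hira_KD replicate 2, 1 protocadherin was called up after Hira depletion.

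The next list holds catenins and plaque proteins, which link cadherins to the cytoskeleton. Of 16 tested, edgeR called 1 up after Hira depletion (10.8% of all genes), Ctnnd2, a neural δ-catenin (1.48 ± 0.26, adjusted p = 0.000142). It called 1 up after Ubn1 depletion (1.53% of all genes), Jup, the plakoglobin of adherens junctions and desmosomes (0.59 ± 0.09, adjusted p = 7.12e-05). After Ubn2 depletion Jup (0.65 ± 0.07, adjusted p = 3.24e-07) and Ctnnd2 were called up, and the desmosomal plakophilin Pkp2 (-0.88 ± 0.08, adjusted p = 5.60e-08) and the p120-catenin relative Arvcf (-0.80 ± 0.08, adjusted p = 1.01e-07) were called down, beside 9.59% of all genes up and 8.75% down. The medians were 0.084 for Hira, 0.16 for Ubn1 and 0.13 for Ubn2 depletion. At an unadjusted p under 0.05, 7 were higher and 3 lower for Hira, 6 and 1 for Ubn1, and 6 and 6 for Ubn2. The Ubn1 count was 0 without Control replicate 2 or without Ubn1_KD replicate 2, where 1 gene was called down, and the Hira count was 2 without Control replicate 1.

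All 15 planar cell polarity partners of Fat, Dachsous and Celsr proteins were tested. Hira depletion called 3 up (10.8% of all genes), Prickle2 (1.08 ± 0.17, adjusted p = 5.30e-05), the receptor Fzd6 (0.72 ± 0.18, adjusted p = 0.00363) and Prickle1 (1.05 ± 0.40, adjusted p = 0.0480). Ubn2 depletion called 4 up (9.59% of all genes), among them the membrane protein Vangl1 (0.62 ± 0.07, adjusted p = 4.93e-07), the secreted modulator Fjx1 (1.01 ± 0.13, adjusted p = 3.55e-06) and Prickle2 (0.80 ± 0.18, adjusted p = 0.00141). Ubn1 depletion called 1 up (1.53% of all genes), Prickle2 (0.85 ± 0.18, adjusted p = 0.00284). The Hira count was 1 without Hira_KD replicate 2, and the Ubn1 count was 0 without Control replicate 1 and 2 without Ubn1_KD replicate 2. Over 11 alternative settings the Ubn1 count ran from 0 to 4, and it differed from 1 in 6 of them.

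Among 14 transcription and splicing regulators of cadherins, 13 were tested, and 4 were called up after Hira depletion, where 10.8% of all genes were. Esrp1, an epithelial splicing factor, rose from 2.31 ± 0.162 to 12.7 ± 2.23 CPM (2.44 ± 0.21, adjusted p = 2.84e-08). Twist1 (1.04 ± 0.26, adjusted p = 0.00366) and Snai3 (0.76 ± 0.26, adjusted p = 0.0256), which belong to repressor families of Cdh1, also rose. After Ubn2 depletion 4 were called up, where 9.59% of all genes were, among them Grhl2, an activator of epithelial genes (1.25 ± 0.24, adjusted p = 0.000308), Twist1 (0.93 ± 0.24, adjusted p = 0.00440) and Snai1 (0.94 ± 0.26, adjusted p = 0.00626). After Ubn1 depletion Esrp1 alone was called, and it fell by 1.27 on the log2 scale (adjusted p = 0.0229), where 1.56% of all genes were called down, while 0 genes were called with DESeq2 or without either control library. Over 11 alternative settings the Ubn1 count called down ran from 0 to 2, and it differed from 1 in 7 of them. The Hira and Ubn2 counts were 2 with DESeq2, and also 2 without Control replicate 1 for Hira and without Control replicate 2 for Ubn2.

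The 11 proteases and turnover factors of cadherins were all tested and edgeR called 0 in each depletion, as did DESeq2. Over all tested genes edgeR called 10.8% up and 5.40% down for Hira, 1.53% and 1.56% for Ubn1, and 9.59% and 8.75% for Ubn2. At an unadjusted p under 0.05, 5 of the 11 were higher and 2 lower after Hira depletion, 3 higher and 0 lower after Ubn1 depletion, and 5 higher and 2 lower after Ubn2 depletion. A single gene was called up without Hira_KD replicate 2 for Hira and without Control replicate 2 for Ubn2.

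**Figure D4:**
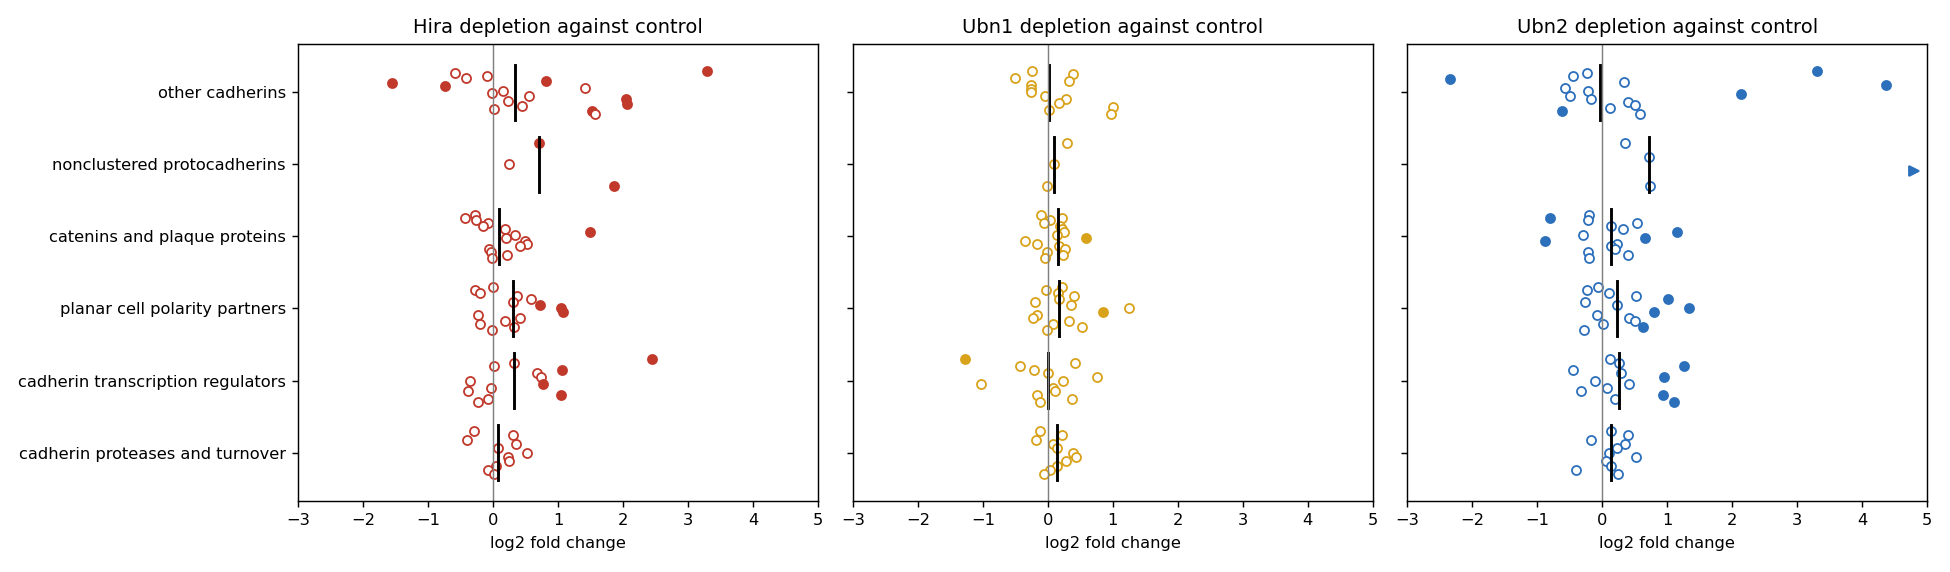
Log2 fold change (horizontal axis) of every tested gene in 6 lists of cadherin-related genes after depletion of Hira, Ubn1 or Ubn2 against control. Filled points were called, black lines are list medians, and the arrowhead marks Pcdh7, off the axis because its control libraries had 0 counts.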

How the data were processed

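Read counts per gene in 3 tables were deposited by the authors as raw counts, and per the labels reads were trimmed with Trim Galore, aligned to GRCm38 with STAR and counted with featureCounts. Tool versions and the strand setting were not given in the sources used here. The control columns held identical values in the 3 tables and were used once. Low genes were removed with filterByExpr, and each pair of groups was fitted with edgeR 4.0.16 (quasi-likelihood test, TMM, Benjamini-Hochberg adjustment over all tested genes) in R 4.3.3. A gene was called at adjusted p under 0.05 and a fold change above 1.5. The standard error was taken from the fold change and the F statistic. Exon lengths, positions and 50-base words came from GENCODE M21. The fit was tested on simulated data. Alternatives were DESeq2 1.42.0, its size factors in edgeR, no low-count filter, a minimum of 10 counts per library, a joint fit of the 8 libraries, the replicate block, the adjusted p alone, and leaving out each library.

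Named genes were all 10 members, the targeted genes, up to 3 called genes of smallest adjusted p per list and comparison with control, and genes overlapping a member's exons. Cell type markers (embryonic stem cells, fibroblasts and mesenchyme, neural cells, primitive endoderm, trophoblast, primitive streak and mesoderm, heart muscle) are given as ranges and counts. The markers named for being at 0 in a group were chosen after their values were seen. The members and lists were chosen with earlier results of these data known. Promoter and protein sequences were not used here.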

Additional observations from a re-analysis of the deposited data

How the results depend on the processing

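Over 48 combinations of member and comparison, 480 alternative values were computed, of which 455 kept their direction and side of the limits, 13 lost a call, 3 gained one and 9 changed sign. The changes of sign concerned uncalled values near 0. With no filter Dchs1 after Ubn2 depletion was -0.0045, and leaving out 1 library gave -0.171 to 0.181 for it and -0.016 to 0.104 for Cdh3. In the same way Hira against Ubn2 gave -0.0079 to 0.159 for Cdh1 and -0.190 to 0.114 for Cdh4, Hira against Ubn1 gave -0.025 to 0.198 for Fat1, and Ubn2 against Ubn1 gave -0.172 to 0.092 for Celsr1. The calls of members that were lost or gained stand beside the results, and their cause was not tested. With the adjusted p alone, which drops the fold limit, members called were 2 up and 2 down for Ubn1, 5 up for Ubn2, 1 down for Hira against Ubn2 and 4 up for Ubn2 against Ubn1, and all genes called up and down were 3357 and 3287 (Hira), 760 and 666 (Ubn1), 3645 and 3473 (Ubn2), 3455 and 3186 (Hira against Ubn2), 1917 down (Hira against Ubn1) and 1566 and 1453 (Ubn2 against Ubn1). DESeq2 called 159 and 136 genes for Ubn1, 1073 up for Hira against Ubn1 and 524 and 483 for Ubn2 against Ubn1, where edgeR called 282 and 286, 1791, and 840 and 744. Leaving out 1 library gave 172 to 319 up and 178 to 374 down for Ubn1, 2 to 4 members up for Hira against Ubn1 and 0 to 2 for Ubn2 against Ubn1. The labels number replicates alike, but same-numbered libraries correlated in their deviations by only -0.0985 to 0.0978 over 19264 genes, so they were not treated as pairs. The replicate block gave 5, 1 and 3 members up for Hira, Ubn1 and Ubn2 against control, the same counts, and 357 genes up and 376 down for Ubn1. Few counts limit Cdh4 (18 to 89) and Dchs1 (20 to 91), and 0 to 7 counts leave Cdh11 and Fat3 unmeasured.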

Other observations

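The list of other epithelial junction genes holds proteins that share the lateral membrane with E-cadherin. Of 12 tested, 4 were called up and 1 down after Hira depletion, 0 up and 2 down after Ubn1 depletion, and 2 up and 3 down after Ubn2 depletion. Over all tested genes the shares called up and down were 10.8% and 5.40% for Hira, 1.53% and 1.56% for Ubn1, and 9.59% and 8.75% for Ubn2. After Hira depletion the adhesion molecule Epcam rose from 68.2 ± 3.39 to 108 ± 6.41 CPM (SD, n = 2; log2 fold change 0.65 ± 0.08, adjusted p = 3.28e-06) and Nectin4, an adherens junction protein, from 3.03 ± 0.643 to 9.41 ± 0.641 CPM (1.59 ± 0.21, adjusted p = 6.53e-06). Cgn, which encodes the tight junction protein cingulin, fell from 39.1 ± 0.0867 to 23.6 ± 1.06 CPM (-0.74 ± 0.10, adjusted p = 1.23e-05). The claudin Cldn6 fell from 12.0 ± 0.927 to 4.65 ± 0.705 CPM after Ubn1 depletion (-1.36 ± 0.19, adjusted p = 9.17e-06) and Cldn7 from 3.42 ± 0.258 to 1.33 ± 0.339 CPM (-1.34 ± 0.31, adjusted p = 0.00544). After Ubn2 depletion Cgn fell to 15.7 ± 1.11 CPM (-1.32 ± 0.11, adjusted p = 7.93e-09) while Nectin1 rose from 53.4 ± 7.10 to 101 ± 17.6 CPM (0.92 ± 0.10, adjusted p = 4.15e-07). For Ubn1, 1 gene was higher at an unadjusted p under 0.05, DESeq2 called 0 up, and 1 was called up without Control replicate 2. The Hira count called up was 2 without Hira_KD replicate 1.

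In the direct comparisons 7 of the 12 were called higher and 1 lower in Hira_KD than in Ubn2_KD cells, with a median log2 fold change of 0.60, beside 12.0% called higher, 5.61% lower and a median of 0.013 over all genes. In Hira_KD against Ubn1_KD cells 6 were called higher and 1 lower, with a median of 0.74, beside 9.52% and 3.16% and a median of 0.022 over all genes. In both, the gene called lower was Nectin1 (-1.06, adjusted p = 1.48e-05, and -0.64, adjusted p = 0.000109). The count called lower against Ubn1_KD cells was 0 without Hira_KD replicate 1.

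The 8 primitive endoderm markers summed to 17.9 to 19.4 CPM in control, 20.2 to 21.2 in Hira_KD, 10.8 to 14.0 in Ubn1_KD and 16.1 to 18.7 CPM in Ubn2_KD cells. Of 7 tested, 2 were called up after Hira depletion (10.8% of all genes) and 2 down after Ubn1 depletion (1.56% of all genes). Both counts were 0 with DESeq2 and without Control replicate 1, and 1 without Control replicate 2. The Hira count was also 0 without Hira_KD replicate 1, and the Ubn1 count was 0 or 1 without Ubn1_KD replicate 1 or 2. The trophoblast markers had 3 of 7 tested called higher in Hira_KD than in Ubn2_KD cells, where 12.0% of all genes were called higher and 5.61% lower. Against Ubn1_KD cells 3 of 6 were called higher, where 9.52% of all genes were called higher and 3.16% lower. In both comparisons 0 markers were called lower, and both counts called higher were smaller without Hira_KD replicate 1. The 8 primitive streak and mesoderm markers summed to 11.8 to 12.9 CPM in control, 15.3 to 18.3 in Hira_KD, 12.5 to 14.2 in Ubn1_KD and 10.9 to 12.0 CPM in Ubn2_KD cells. Of 6 tested after Hira depletion, 1 was called up and 1 down, beside 10.8% and 5.40% of all genes. The call down was lost without Control replicate 2 or Hira_KD replicate 2.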
